A study of Mus musculus with 8 samples.

Results

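The replication-dependent histone genes encode the linker histone H1 and the core histones H2A, H2B, H3 and H4 that package new DNA in S phase. They were taken as all GENCODE M21 protein-coding genes with a symbol starting in Hist1h, Hist2h, Hist3h or Hist4, which gave 67 of 21951 protein-coding genes. Every row of the short-read table that overlapped such a gene on its strand was summed, and 68 of the 65265 rows did. By class there were 6 genes for H1, 18 for H2A, 18 for H2B, 12 for H3 and 13 for H4. On mm10 the Hist1 cluster held 54 of them at chr13:21715763-23934851, Hist2 held 10 at chr3:96219865-96270132, Hist3 held 2 at chr11:58948920-58956830 and Hist4 was the single gene Hist4h4 at chr6:136801553-136804415.

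The samples were nuclei of HL1, a mouse cardiomyocyte line grown with norepinephrine and serum and given no further treatment. Nuclei were extracted with urea and detergent, and the pellet after centrifugation was called chromatin and the supernatant nucleoplasm. Short-read libraries of rRNA-depleted RNA were made from 3 chromatin and 3 nucleoplasm samples, and direct cDNA long-read libraries from 2 chromatin samples only. For the nucleoplasm samples the fraction field of the labels reads chromatin, and the titles, which say nucleoplasm, were followed. HL1 derives from a mouse atrial tumour lineage and divides in culture, which limits it as a model of resting heart muscle. Per the methods, the 3 short-read replicates of each fraction came from separate cultures. In bulk RNA, fewer nuclei that express a gene and less RNA per nucleus cannot be told apart.

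Most mammalian mRNAs end in a poly(A) tail. Replication-dependent histone mRNAs do not: their genes lack introns, and the pre-mRNA is cut a few bases after a short stem-loop that the stem-loop binding protein SLBP holds through export, translation and decay. The genes lie in clusters where NPAT drives their transcription in S phase at the histone locus body. Neither library type selected natural poly(A) tails here: the short-read RNA was depleted of rRNA and converted without oligo-dT, and the long-read RNA was first given an enzymatic tail.

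The stem-loop is shown first because it is what sets these mRNAs apart. The search was for a 16-base stem-loop of the form found in histone mRNAs. It required a 6-base stem starting with GG, a 4-base loop starting with TT and perfect pairing. Such a stem-loop was present on the sense strand in the annotated transcripts of 44 of the 67 genes. In 17 of the other 23 genes the longest annotated transcript ended within 60 bases of the coding end. The windows below run 5′ to 3′ from GENCODE transcripts, and capitals mark the stem-loop, whose mm10 position is given after the name.
Hist1h1c (chr13:23739512-23739527, + strand): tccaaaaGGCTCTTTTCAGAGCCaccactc
Hist1h1e (chr13:23621782-23621797, - strand): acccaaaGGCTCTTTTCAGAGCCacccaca
Hist1h1t (chr13:23696525-23696540, + strand): acccaaaGGCTCTTTTAAGAGCCacttaca
Hist2h2aa1 (chr3:96246032-96246047, + strand): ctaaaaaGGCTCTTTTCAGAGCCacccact
Hist2h2ac (chr3:96220418-96220433, - strand): ccaaaaaGGCTCTTTTTAGAGCCaccaaat
Hist1h2bb (chr13:23747203-23747218, + strand): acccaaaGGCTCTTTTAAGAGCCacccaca
Hist1h2bg (chr13:23571843-23571858, + strand): acccaaaGGCTCTTTTCAGAGCCacccata
Hist1h3e (chr13:23561903-23561918, - strand): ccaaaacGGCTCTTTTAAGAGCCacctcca
Hist1h4d (chr13:23581950-23581965, + strand): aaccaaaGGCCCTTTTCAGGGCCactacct
Hist1h4h (chr13:23531458-23531473, + strand): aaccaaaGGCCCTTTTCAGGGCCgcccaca
Hist4h4 (chr6:136803998-136804013, - strand): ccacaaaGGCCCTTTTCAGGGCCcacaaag
Hist1h4b (chr13:23757366-23757381, + strand): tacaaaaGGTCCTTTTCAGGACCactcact
Hist2h4 (chr3:96262939-96262954, - strand): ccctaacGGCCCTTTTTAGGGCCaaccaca

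The stem differed between H4 and the other classes. The search fixed the leading GG of the stem and the leading TT of the loop, so only the later bases could differ. All 33 stem-loops of H1, H2A, H2B and H3 genes had a stem starting with GGCTC. None of the 11 of H4 genes did: 9 started with GGCCC and 2, in Hist1h4b and Hist1h4j, with GGTCC. Among the 33, the loop was TTTC in 26, TTTA in 6 and TTTT in 1, which was Hist2h2ac. The stem-loop began 21 to 58 bases after the stop codon (median 31).

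The 3′ ends of the short-read rows lay close behind it. In 40 of the 44 genes the row that best matched the gene ended 4 to 8 bases past the stem-loop, and 29 of these ended exactly 5 bases past it. In 19 of the 40 the GENCODE gene ran on for more than 100 bases past the row's end. The row ends are not independent of annotation, because the assembly was guided: 37 of the 40 were the same base as the RefSeq gene end. The 4 exceptions were wide rows, at Hist1h2be, Hist1h2bp, Hist1h3f and Hist3h2a.

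Histone promoters were searched for a TATA box (TATAA, sense strand, between 45 and 16 bases before the RefSeq start). CCAAT was searched for on either strand in the 250 bases before the start. RefSeq promoters on GRCm38.p6 were found for 60 of the genes. TATAA was present in 21 of 60 (35%) and in 4.23% of 27025 RefSeq promoters. CCAAT was present in 49 of 60 (81.7%) and in 34.5% of all promoters. A match is a run of letters and not a measured site. These 30-base windows are from genes whose levels are given below, and capitals mark TATAA.
Hist1h1e (chr13:23622568-23622597, - strand): agctccgccctaTATAAacgggcgggcgca
Hist1h4d (chr13:23581524-23581553, + strand): ccgcattggtatTATAAaagccaggaaggc
Hist2h2bb (chr3:96269656-96269685, + strand): gcatacaagctcTATAAgtaccgcatagca
Hist3h2a (chr11:58954644-58954673, + strand): ctcctgatcataTATAAgagcttgctggcg

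Recovered reads per short-read library ranged from 91657034 to 121773350. The fractions held the RNAs that define them: the nuclear RNA Malat1 was higher in chromatin (log2 fold change 3.82), as was Pvt1 (3.93), while the mRNAs of Gapdh (-2.07 ± 0.25) and B2m (-2.67 ± 0.13) were lower. Here and below ± after a log2 fold change (chromatin over nucleoplasm) is its standard error. All 8 cardiomyocyte markers were above 0, with Tnnt2 at 45489 to 75455 normalized counts. Nppa was by far the lowest of them, at 26.4, 25.2 and 10.4 in chromatin and 101, 113 and 15.9 in nucleoplasm. Of markers of other cells, the fibroblast list summed to 101744 to 117195 in chromatin and 212530 to 347576 in nucleoplasm, mostly from Col1a1. The endothelial list summed to 891 to 2659 with Cdh5 at 0, and the leukocyte list to 24.4 to 51.5. Replicate 3 of both fractions stood apart: Myh6, the alpha myosin heavy chain, read 86442, 91739 and 13623 in chromatin and 61767, 59896 and 9379 in nucleoplasm. Results are therefore also given without replicate 3 of both fractions where that moved a call. All 6 markers of dividing cells were above 0, with Mki67 at 71342 to 135465 and Pcna at 4806 to 14392 normalized counts. Of these, 4 were lower in chromatin (66.7%, against 33.6% of protein-coding genes), Ccna2 (-1.29 ± 0.21), Pcna (-1.18 ± 0.27), Mcm2 (-0.90 ± 0.14) and Top2a (-0.58 ± 0.13). With ERCC scaling, described below, 1 was lower, Mki67 was higher (1.28) and Top2a turned to 0.15 without passing. On that scale 11.8% of protein-coding genes were lower and 37.7% higher. The part of the fibroblast and dividing cell markers in the histone difference was not tested.

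Histone mRNAs were lower in chromatin than in nucleoplasm almost without exception. With limma on log2(normalized count + 1) over 29621 features and Benjamini-Hochberg adjustment, 66 of 67 histone genes were lower in chromatin and 0 were higher. Across all 17466 protein-coding genes tested, 33.6% were lower and 26.1% higher, and across all features 26.5% were lower and 29.8% higher. More than 4-fold lower were 63 of the 67, against 4.82% of protein-coding genes and 5.64% of all features. More than 4-fold higher were 0 histone genes, 7.44% of protein-coding genes and 14.2% of all features. Every chromatin library read below every nucleoplasm library in 66 histone genes, in 36.6% of protein-coding genes and in 29.0% of all features. The median log2 fold change of the 67 was -2.49, against -0.10 for all protein-coding genes and 0.30 for all features. The middle of the distribution was narrow, from -2.56 at the lower quartile to -2.43 at the upper. The 65 genes with a mean of at least 100 normalized counts included 64 that were lower. The other 2 genes were Hist1h2aa, a testis H2A, at 30.5, 29.3 and 29.1 in chromatin and 142, 137 and 115 in nucleoplasm, and the linker histone Hist1h1b. Hist1h1b was at 0 in all 3 chromatin libraries and at 2.02, 1.2 and 1.45 in nucleoplasm, which is under 3 reads in each, so no fold is given for it although it passed limma's test (adjusted p = 0.0147). edgeR and DESeq2 on recovered reads did not call it.

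**Figure D1:**
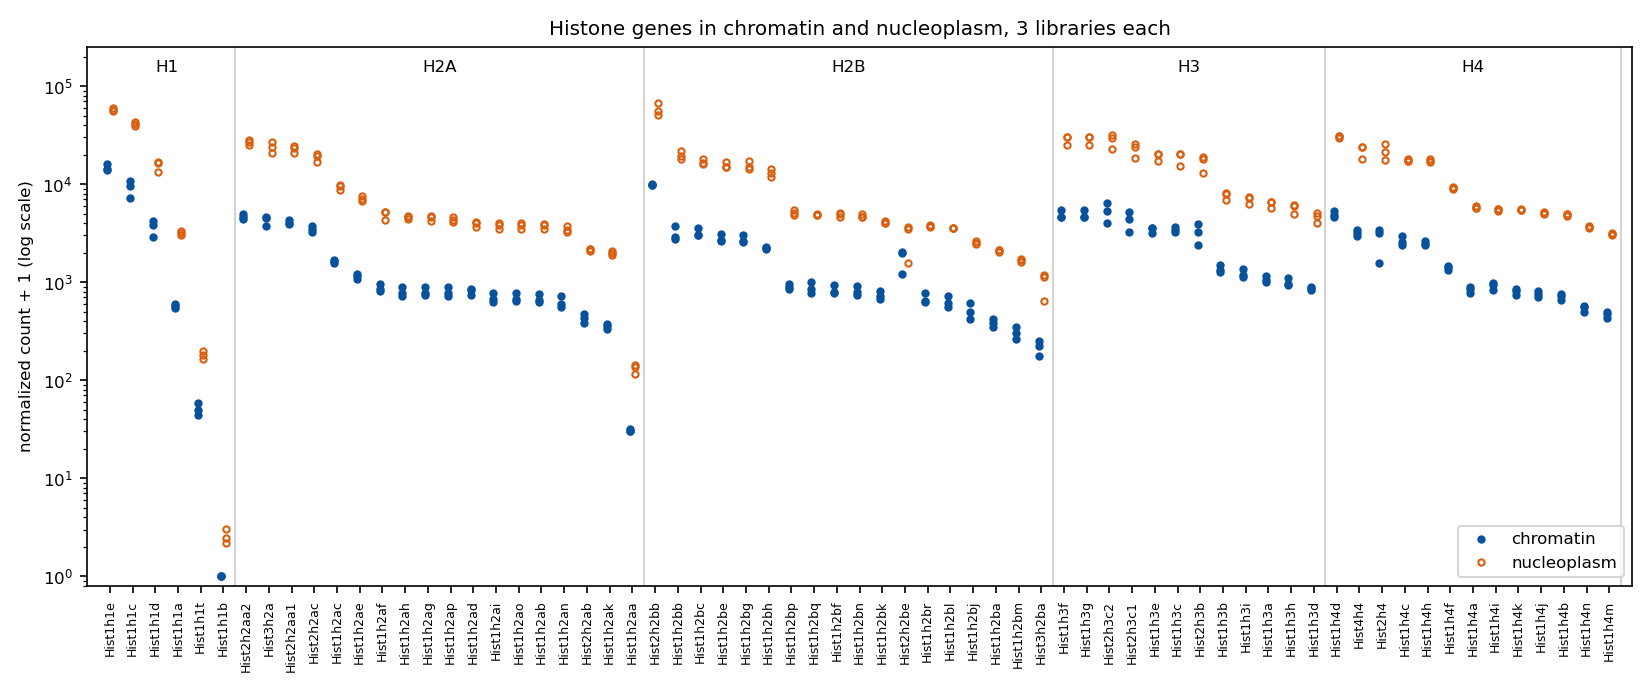
Normalized count + 1 (log scale) of each of the 67 histone genes in the 3 chromatin libraries (filled) and the 3 nucleoplasm libraries (open), ordered by class and by mean. The open points lie above the filled ones in 66 genes, and in Hist2h2be they overlap.

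Summed over rows, each counted once, histone genes took 0.139% ± 0.0105 of the normalized counts in chromatin and 0.735% ± 0.0673 in nucleoplasm (SD, n = 3 each). The sums were 133505, 147842 and 130223 in chromatin and 795033, 761252 and 684363 in nucleoplasm, and the means differed 5.44-fold. No nucleoplasm library came near the chromatin libraries.

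The size of this difference depends on the scale. The deposited values were scaled by size factors, which set a typical gene equal between libraries. The same volume of diluted ERCC spike-in RNA was added to each fraction, and ERCC sequences took 183950 to 213760 normalized counts in chromatin and 261886 to 392823 in nucleoplasm. Scaled to ERCC, the median of all protein-coding genes moved from -0.10 to 0.51 and 11.8% of them were lower. On that scale 65 histone genes were still lower, and their median was -1.76. More than 4-fold lower were 9 of them, against 0.538% of protein-coding genes and 0.594% of all features. Relative to the median of protein-coding genes the histone median was -2.39 on the deposited scale and -2.27 on the ERCC scale.

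By class, the H4 genes showed the largest fall and the H1 genes the smallest. The 13 H4 genes ranged from -3.06 to -2.59 with a median log2 fold change of -2.76. Medians were -2.47 for H2A (18 of 18 lower), -2.48 for H2B (17 of 18) and -2.48 for H3 (12 of 12). The 6 H1 genes had a median of -2.03, or -2.11 without Hist1h1b, and 3 of them passed 4-fold. The class differences were described and not tested, since genes of a class are not replicates. Within H4 the median was -2.73 for the 7 genes with a GGCCC stem and a TTTC loop, -2.82 for the 2 with a GGCCC stem and a TTTT loop and -2.76 for the 2 with a GGTCC stem.

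**Figure D2:**
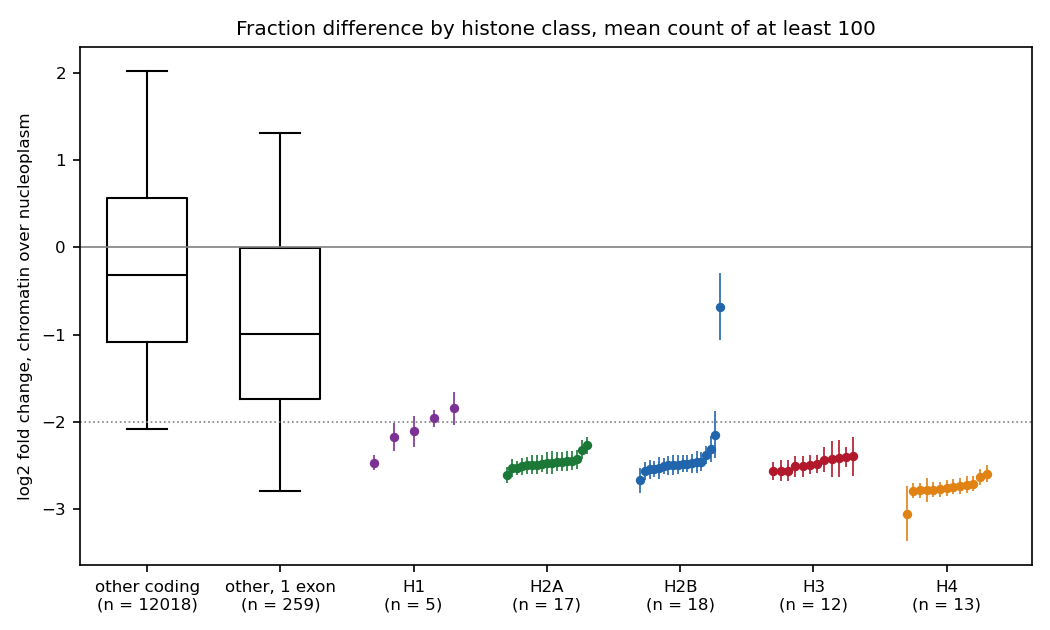
Log2 fold change (chromatin over nucleoplasm) of histone genes with a mean of at least 100 normalized counts, by class (points, with standard error), beside boxes of other protein-coding genes with the same mean (n = 12018) and of those with 1 exon (n = 259). Boxes give quartiles and whiskers the 5th and 95th percentiles, and the dotted line marks a 4-fold fall.

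The same order held in the class sums of each library. H1 rows made up 20.5% ± 1.40 of histone counts in chromatin and 15.7% ± 0.549 in nucleoplasm, and H4 rows 16.3% ± 0.426 and 20.3% ± 0.500 (SD, n = 3). The row shared by Hist1h1e and Hist1h2be is in both the H1 and the H2B sums. It gave a mean of 2808 of the 28131 H1 counts in chromatin and 15621 of the 117004 in nucleoplasm. The ratio of H4 to H1 counts was 0.772, 0.744 and 0.890 in chromatin and 1.32, 1.27 and 1.29 in nucleoplasm, so the fractions did not overlap. This ratio is within a library and does not depend on scaling between libraries. H2A, H2B and H3 kept nearly equal shares, with H2A at 19.6% in chromatin and 20.1% in nucleoplasm, H2B at 23.9% and 24.0%, and H3 at 21.7% and 22.0%.

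**Figure D3:**
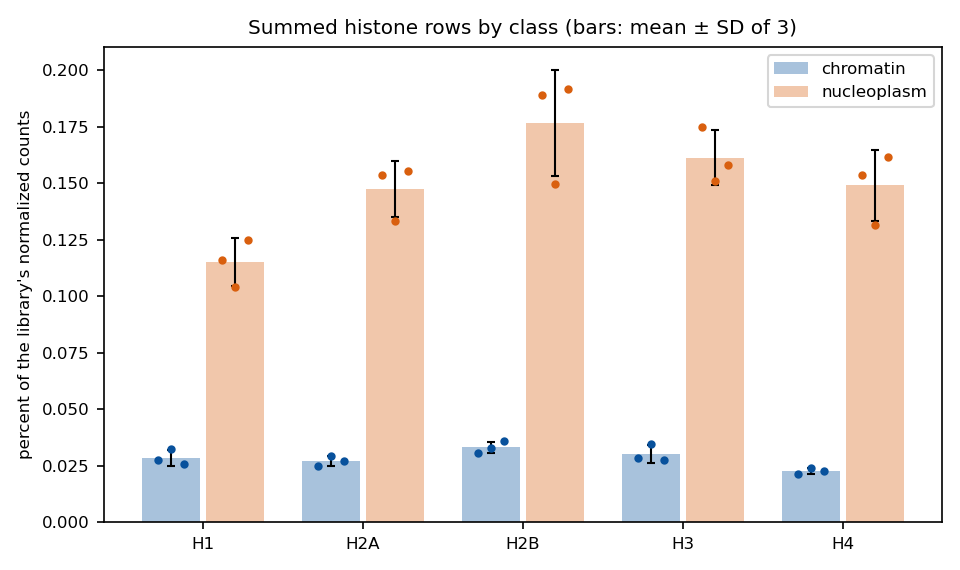
Summed counts of each histone class as a percent of all normalized counts of the library. Bars give the mean and SD of 3 libraries and points the libraries. The row shared by Hist1h1e and Hist1h2be is counted in both H1 and H2B. H4 is the lowest class in chromatin, and H1 the lowest in nucleoplasm.

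Linker histone H1 binds DNA between nucleosomes. Hist1h1e (chr13:23620629-23622558, ENSMUSG00000051627.3) had the highest count of the class, at 14240.3, 15946 and 13815 in chromatin and 56577, 58994 and 55307 in nucleoplasm. It was 3.88-fold lower in chromatin, a log2 fold change of -1.96 ± 0.10 with an adjusted p of 2.29e-05 (limma). Its sum includes a 37455-base row shared with Hist1h2be, and with rows of at most 2000 bases only its log2 fold change was -1.81 ± 0.11. Hist1h1c (chr13:23738808-23740367), another somatic H1, read 9492, 10860.3 and 7260.1 in chromatin and 43329, 41347 and 38726 in nucleoplasm. Its log2 fold change of -2.18 ± 0.16 was close to that of Hist1h1e. Hist1h1d (chr13:23553262-23560686), also somatic, read 3805, 4240.2 and 2873 against 16524, 16986 and 13201 (-2.11 ± 0.18). All 3 were lower in every chromatin library, at the shallow end of the histone range. Hist1h1a (chr13:23763666-23764406) was lower in level and fell more steeply, from 3292, 3137 and 3047 in nucleoplasm to 539, 604 and 570.3 in chromatin (-2.47 ± 0.09). Hist1h1t (chr13:23695814-23696725), the testis H1, was near the floor of the class at 48.8, 57.6 and 42.7 in chromatin and 162, 199 and 179.7 in nucleoplasm (-1.84 ± 0.19, adjusted p = 0.000252, limma). With Hist1h1e and Hist2h2be it was among the 3 shallowest falls.

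H2A pairs with H2B in the nucleosome. The highest H2A count was that of Hist2h2aa2 (chr3:96239749-96240276), which has a near-identical partner in Hist2h2aa1 (chr3:96245497-96246082). Hist2h2aa2 read 4445, 4987 and 4628 in chromatin and 28241, 26973 and 24878 in nucleoplasm (-2.51 ± 0.09). Hist2h2aa1 read 3916, 4346 and 4013 and 24552, 23195 and 20931 (-2.48 ± 0.10). The coding sequences of this pair are fully shared (100% of 50-base stretches occur in another gene), so how reads were divided between them is uncertain, although their folds match. Their neighbour Hist2h2ac (chr3:96220361-96220880) read 3241, 3742 and 3522 in chromatin and 19468, 20428 and 16832 in nucleoplasm, and its log2 fold change was -2.43 ± 0.11. Hist2h2ab (chr3:96219865-96220308), next to it on the other strand, had a far lower level, 383, 473 and 427 and 2172, 2157 and 2055 (-2.32 ± 0.11). Hist1h2ac (chr13:23681467-23683948), the highest H2A of the Hist1 cluster, read 1550.1, 1675 and 1645 against 9849, 9476 and 8788 (-2.53 ± 0.08). Hist3h2a (chr11:58954685-58956830) read 4517, 4621 and 3767 against 26603, 24119 and 20694 (-2.47 ± 0.13), but its row also covers the gene Trim17, so part of the count may not be histone RNA. The remaining 12 Hist1 H2A genes lay between -2.61 (Hist1h2ae) and -2.10 (Hist1h2aa), and all were lower.

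Among H2B genes, Hist2h2bb (chr3:96269752-96270132) had the highest count, 9977, 9858 and 9874 in chromatin and 66412, 56208 and 50149 in nucleoplasm. It had the highest level per kilobase of row in both fractions among the 58 genes with an own row of at most 2000 bases, 20088 in chromatin and 116815 in nucleoplasm (normalized counts per kb). Its log2 fold change was -2.53 ± 0.12 (adjusted p = 2.11e-05, limma). Hist1h2bb (chr13:23746734-23747241) showed the largest fall of the class, from 19512, 18149.5 and 21719 in nucleoplasm to 2737, 2910.3 and 3756 in chromatin (-2.67 ± 0.14). Hist1h2bc (chr13:23684199-23692908), which is annotated with an intron, read 3051, 3055 and 3581 and 17872, 15942 and 16471 (-2.38 ± 0.10). Both fell, and Hist1h2bc fell a little less. Hist1h2be (chr13:23583670-23621124) read 2666, 2652 and 3107 and 16861, 15058 and 14944 (-2.48 ± 0.10), all of it in the row that it shares with Hist1h1e. Hist1h2bg (chr13:23571396-23572013) read 2656, 2536 and 2994 and 16991, 14287 and 14942 (-2.50 ± 0.11). Hist3h2ba (chr11:58948920-58949533) was the lowest H2B, at 224, 248 and 176 in chromatin and 1183, 1124 and 644 in nucleoplasm (-2.15 ± 0.27). Its nucleoplasm replicate 3 stood below the other two.

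Hist2h2be (chr3:96221119-96223738, ENSMUSG00000068854.7) was the exception among all histone genes. It read 1983, 2018 and 1221 in chromatin and 3686, 3511 and 1548 in nucleoplasm. Replicate 3 was low in both fractions and the fractions overlapped. Its log2 fold change was -0.68 ± 0.38 (adjusted p = 0.176, limma), so it did not pass the test. Within each replicate number chromatin was lower, and with the replicate block the change passed (-0.68 ± 0.12, adjusted p = 0.00587, limma). It also passed without replicate 3 of both fractions (-0.85 ± 0.06, adjusted p = 0.000511, limma) and without nucleoplasm replicate 3 alone (-1.08). On the ERCC scale the value was 0.055 and did not pass. Its annotated transcript is a single exon of 2620 bases with an AATAAA or ATTAAA in its last 40 bases, and no stem-loop of the form searched was in it. None of its coding 50-base stretches occurs in another gene. The 17 histone genes with such a signal, Hist2h2be among them, had a median log2 fold change of -2.49, and the 50 without had -2.49. The signal was sought at the GENCODE transcript end, and most of the 17 counted rows stop before that end. Relative to it the row end lay at -2440 bases in Hist4h4, -1252 in Hist2h4 and 0 in Hist2h2be. The 2 medians therefore do not compare RNA with and without the signal. The part of the signal or of the stem-loop in the value of Hist2h2be was not tested.

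H3 carries most of the histone tail marks. The highest count was in 1 row of 11686 bases that covers both Hist1h3f (chr13:23544052-23545312) and Hist1h3g (chr13:23535422-23535951). It read 4595, 5385 and 4562 in chromatin and 30558, 30132 and 25206 in nucleoplasm (-2.56 ± 0.12), and the share of each gene in it is not known. In the Hist2 cluster, Hist2h3c2 (chr3:96238108-96239127) read 5324, 6395 and 3997 and 31295, 29851 and 22825 (-2.43 ± 0.21). Hist2h3c1 (chr3:96246685-96248509) read 4372, 5164 and 3230.4 and 25765, 23786 and 18234 (-2.42 ± 0.21). Hist2h3b (chr3:96268654-96269141) read 3261, 3932 and 2372 and 19094, 17808 and 13029.7 (-2.40 ± 0.23). In these 3 genes replicate 3 was the lowest library of each fraction, and their standard errors were larger than those of the other 9 H3 genes. Hist1h3e (chr13:23561534-23562369) read 3197, 3605 and 3552 in chromatin and 20113, 20369 and 17369.5 in nucleoplasm, and its log2 fold change was -2.48 ± 0.10. All 12 H3 genes lay within -2.56 and -2.40.

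H4 is the least variable core histone in sequence. Hist1h4d (chr13:23581598-23582735) had the highest count, 4601, 4872 and 5338 in chromatin and 31281, 29316 and 31193 in nucleoplasm (-2.63 ± 0.09). Hist4h4 (chr6:136801553-136804415), alone in its cluster, read 3195, 3382 and 2919 and 23882, 23973 and 17965, a 6.93-fold difference (-2.78 ± 0.14). Hist2h4 (chr3:96261682-96263311) read 3166, 3413 and 1569 and 25636, 21411 and 17765, which at 7.95-fold was the largest difference of any histone gene (-3.06 ± 0.32, adjusted p = 0.000259, limma). Its chromatin replicate 3 was well below the other two, and its standard error was the largest among H4 genes. Hist1h4c (chr13:23697635-23698454) read 2412, 2589 and 2921 and 17196, 17888 and 17062 (-2.72 ± 0.10). Hist1h4h (chr13:23531050-23531519) read 2402, 2649 and 2453 and 17812, 17263 and 16610 (-2.78 ± 0.08), and Hist1h4a (chr13:23760692-23761230) 771, 894 and 857 and 5737, 5944 and 5739 (-2.79 ± 0.09). Hist2h4, Hist1h4a and Hist1h4h had the 3 largest falls of all histone genes. Hist4h4 and Hist2h4 share 0% and 6.15% of their coding 50-base stretches with other genes, and the other 11 H4 genes 42.7% to 100%. The part of sharing in the H4 values was not tested.

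By cluster, the falls were alike. The Hist1 genes had a median log2 fold change of -2.49 (54 of 54 lower), the Hist2 genes -2.43 (9 of 10), the 2 Hist3 genes -2.47 and -2.15, and Hist4h4 -2.78. Sums over clusters differed 5.35-fold for Hist1, 5.53-fold for Hist2 and 5.49-fold for Hist3. Within Hist1, H1 rows, with the row shared with Hist1h2be, differed 4.16-fold and H4 rows 6.53-fold. The order of the classes was thus seen inside this cluster as well.

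Histone paralogs share long stretches of coding sequence, so their reads cannot always be placed. In the median gene 75% of the 50-base stretches of the coding sequence occurred in another gene, with a class median of 88.6% for H2A, 85.4% for H3, 77.1% for H2B, 71.2% for H4 and 11% for H1. The 53 genes with at least 50% shared had a median log2 fold change of -2.50 and ranged from -2.79 to -2.27. The 14 under 50% had a median of -2.16 and ranged from -3.06 to -0.68, and 13 of them were lower. Values of the near-identical members are therefore uncertain gene by gene, while the direction was also seen in genes with little sharing. H1 genes were both the least shared and the shallowest class, and the part of sharing in the class difference was not tested.

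Long reads gave the same genes in chromatin on another platform. Entries named by RefSeq were above 0 TPM in at least 1 library for 65 of 67 genes and in both for 59. Summed over genes they came to 1751 and 1588 TPM in replicates 1 and 2. With each entry counted once they came to 1740 and 1581, since 2 entries overlap both Hist1h1e and Hist1h2be. The genes with no TPM above 0 on their own strand were Hist1h1b and Hist1h1a, and Hist1h1a was read by short reads at a mean of 571 normalized counts in chromatin. An assembled model on the opposite strand that covered only Hist1h1a read 4.11 and 5.52 TPM. TPM hold no read counts, so no upper limit is given for a 0. The highest gene was Hist2h2aa1 (129 and 136 TPM), followed by Hist2h2aa2 (115 and 119.8) and Hist1h1e (82.7 and 124). Of the Hist1h1e TPM, 71.6 and 117 were of its own entry and the rest of an entry shared with Hist1h2be. Hist2h3c2 read 121 and 24.2, far apart between the replicates, and Hist2h2bb, the highest gene by short reads per kb, read 64.2 and 61.6. Median TPM was 30.8 in H3, 20.9 in H2A, 15.4 in H2B, 8.78 in H4 and 8.48 in H1. The gene values, these medians and the correlation below use RefSeq-named entries on the histone strand only, although the long reads were not stranded.

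Across the 56 genes with both values, mean long-read TPM and short-read chromatin count per kb had a Spearman rho of 0.683 and a Pearson r of 0.707 on log10 values. The 2 long-read replicates had a Pearson r of 0.783 over the 59 genes above 0 in both. These are descriptions across genes, which share libraries, paralog reads and length, and carry no test.

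**Figure D4:**
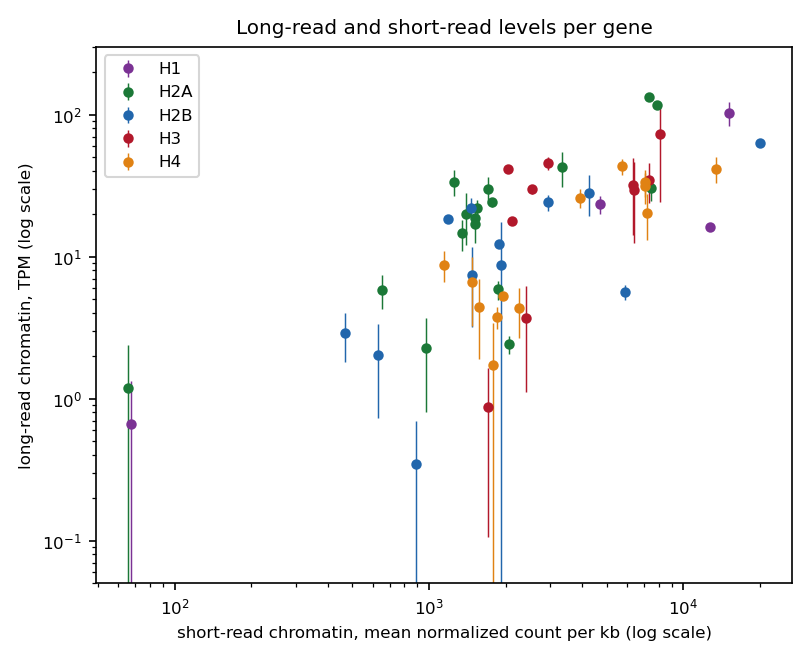
Mean long-read TPM against mean short-read count per kb in chromatin (both log scales) for 56 histone genes, coloured by class. Bars span the 2 long-read replicates, and a bar that reaches the lower edge has a replicate at 0. Genes high on 1 axis tend to be high on the other (Spearman rho 0.683).

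The long-read table was not stranded. Assembled models on the histone strand added 288 and 261 TPM, and assembled models on the opposite strand came to 475 and 545 TPM in replicates 1 and 2. These sums overlap: 7 of the 17 opposite-strand models covered several histone genes and also lay over genes on their own strand. Such models are counted in both sums, so the opposite-strand sum is not a separate pool. The other opposite-strand models each covered 1 histone gene. Among these were models at Hist2h2bb (41.3 and 87.6 TPM), Hist1h1e (34.4 and 52.1), Hist3h2a (29.5 and 53.7) and Hist1h4c (28.0 and 51.5). Their TPM were not added to the gene values, so the order of genes could differ with both strands. RefSeq-named entries on the opposite strand came to 1.04 and 3.63 TPM. Some models joined several genes: 1 of 112037 bases in Hist1 covered 7 histone genes on its own strand and 8 on the other, at 0 and 39.5 TPM. A model of 37272 bases covered 4 and 4, at 63.2 and 38.6 TPM. In the stranded short reads the only row opposite a histone gene that was no histone row itself lay across Hist1h2be. It read 31.5, 29.3 and 46.8 in chromatin and 12.1, 10.8 and 12.3 in nucleoplasm.

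Other genes with 1 exon were a comparison class, because histone genes lack introns: 62 of the 67 had 1 exon in every GENCODE transcript. Among 259 other 1-exon coding genes with a mean of at least 100 normalized counts, 170 were lower in chromatin (65.6%), 49 of them more than 4-fold (18.9%), with a median log2 fold change of -0.99. Among 12018 other coding genes of that level 45.3% were lower, with a median of -0.32. The 65 histone genes of that level had 98.5% lower and a median of -2.49. The 5 histone genes annotated with an intron had a median of -2.48, and the 62 without had -2.49. Each of the 5 was counted in 1 row, which does not separate spliced from 1-exon transcripts, so the median is not that of spliced RNA.

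Replacement histones are made outside S phase from polyadenylated mRNAs, in most cases spliced. Of 11 genes on the list, 7 were lower in chromatin (63.6%, against 33.6% of protein-coding genes), 2 were higher (against 26.1%) and 2 did not pass, with a median log2 fold change of -1.40. The largest fall was that of H2afx (-2.37 ± 0.15), which encodes H2A.X and can make both a stem-loop and a polyadenylated mRNA. It read 19332, 20604 and 16084 in chromatin and 109621, 97327 and 83819 in nucleoplasm. Next were H1fx (-2.27 ± 0.36), H2afz, which encodes H2A.Z (-1.99 ± 0.11), and H2afj (-1.95 ± 0.29). H2afy2 (-1.69 ± 0.27), H1f0, the H1 of resting cells (-1.40 ± 0.22), and H3f3b, which encodes H3.3 (-1.29 ± 0.21), were also lower. The second H3.3 gene, H3f3a, did not pass (-0.39 ± 0.17). Against these, H2afy, which encodes macroH2A, was higher in chromatin (1.75 ± 0.14), at 11913, 10913 and 9674 against 2979, 2894 and 3838. The centromeric H3 gene Cenpa was higher as well (0.71 ± 0.21). On the ERCC scale 6 were lower and 3 higher, where 11.8% of protein-coding genes were lower and 37.7% higher, and H3f3b no longer passed.

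Genes whose products make, cut or degrade histone mRNA gave counts near the shares of all coding genes. Of 18, 6 were lower (33.3%, against 33.6% of protein-coding genes), 5 higher (against 26.1%) and 7 did not pass. Their median log2 fold change was -0.13, against -0.10. The histone gene activators Npat (1.25 ± 0.13) and Hinfp (1.03 ± 0.11) were higher in chromatin, as were Casp8ap2, a histone locus body protein (0.50 ± 0.17), Zfp473, of the processing complex (0.58 ± 0.18), and the uridyl transferase Tut4 (0.83 ± 0.19). Slbp itself was lower (-0.84 ± 0.12), at 3069.7, 2941 and 3876 in chromatin and 6094, 5649.9 and 5786 in nucleoplasm. Lower too were the cap-binding Ncbp2 (-1.74 ± 0.18), the U7 snRNP member Lsm10 (-1.52 ± 0.18), the scaffold Sympk (-0.99 ± 0.12), Cpsf2 (-0.94 ± 0.10) and Upf1, needed for histone mRNA decay (-0.88 ± 0.14). On the deposited scale none of the 18 reached a 4-fold change. On the ERCC scale 2 were lower, Ncbp2 (-1.01) and Lsm10 (-0.79), and 10 were higher, where 11.8% of protein-coding genes were lower and 37.7% higher. Slbp was then at -0.10 and did not pass.

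Of 11 histone chaperones 7 were lower (63.6%, against 33.6% of protein-coding genes), 2 higher (against 26.1%) and 2 did not pass, with a median of -0.78. Asf1b had the largest fall (-1.84 ± 0.15), followed by the FACT subunit Ssrp1 (-1.36 ± 0.16), Daxx (-1.19 ± 0.14) and Chaf1b of the CAF-1 complex (-1.05 ± 0.08). Nap1l1 (-1.02 ± 0.10), the FACT subunit Supt16 (-0.78 ± 0.12) and Asf1a (-0.57 ± 0.08) were lower too. Hira, the H3.3 chaperone, was higher in chromatin (1.49 ± 0.09), and so was Nap1l4 (0.63 ± 0.14). None fell as far as the median histone gene. On the ERCC scale Asf1b alone was lower (-1.11, with 11.8% of protein-coding genes lower) and 3 were higher (with 37.7% higher), and Asf1a turned to 0.17 without passing.

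**Figure D5:**
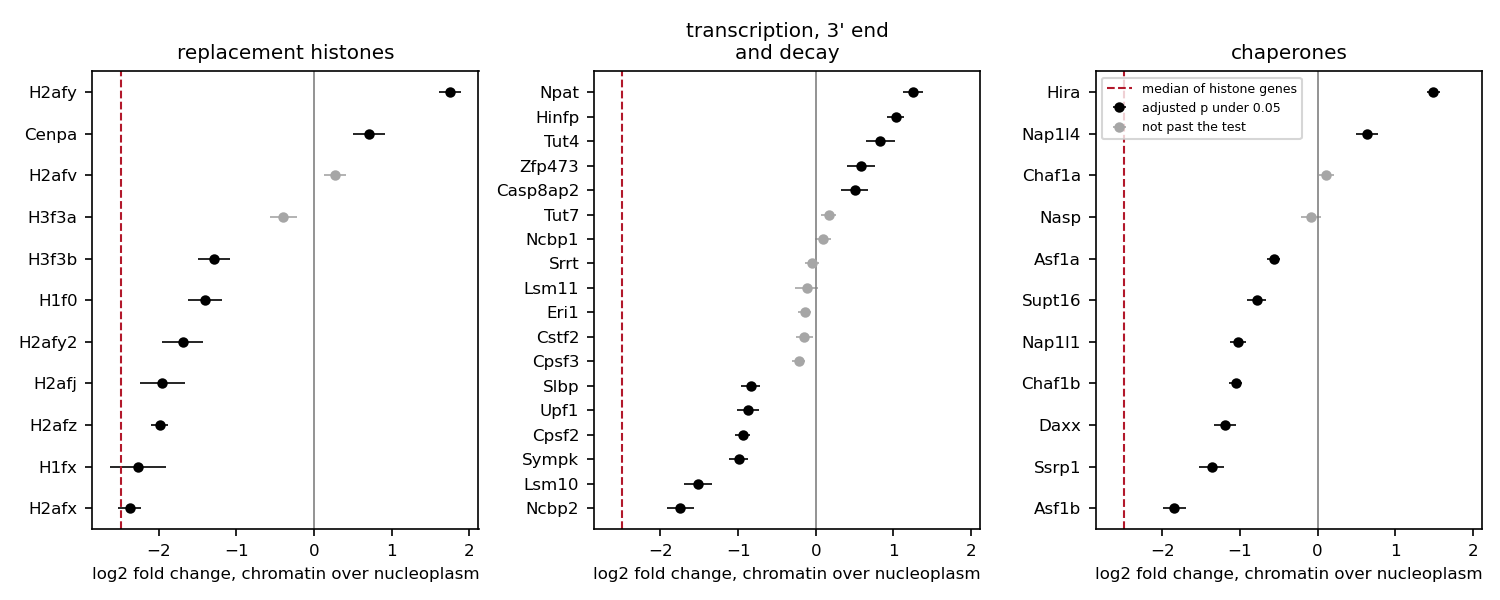
Log2 fold change (chromatin over nucleoplasm, with standard error) of replacement histones, of genes for histone mRNA transcription, 3′ end formation and decay, and of histone chaperones. Black points passed the test and grey points did not. The dashed line is the median of the 67 histone genes, -2.49, and no point lies to its left.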

How the data were processed

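RNA of HL1 chromatin and nucleoplasm was sequenced in 3 short-read libraries each and, for chromatin, in 2 long-read libraries. Per the labels and methods, the authors aligned short reads to mm10 with HISAT2 2.1.0, assembled them with StringTie guided by RefSeq, counted reads per assembled gene and divided the counts by DESeq2 size factors, which is the deposited signal used here and called normalized count. These values are whole reads times a constant in each library, so reads were recovered from them (91657034 to 121773350 per library). The deposited long-read TPM come from minimap2 and StringTie, without strand, and hold no read counts.

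Rows overlapping each GENCODE M21 coding gene on its strand were summed, and all features above 0 in at least 1 library were fitted with limma 3.58.1 (R 4.3.3, mean-variance trend) on log2(normalized count + 1). A pseudocount of 1 understates the change of low genes. P-values were adjusted over all features (Benjamini-Hochberg, threshold 0.05), and more than 4-fold means a log2 fold change past 2 in size. edgeR 4.0.16 and DESeq2 1.42.0 on recovered reads, other scalings and filters, a replicate block and leaving out libraries were alternatives. The tests were checked on simulated data. Reads shared between paralogs were gauged by 50-base stretches of coding sequence that occur in a transcript of another GENCODE gene of any type. A poly(A) signal is AATAAA or ATTAAA in the last 40 bases of a transcript.

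Replicate numbers in the titles were used as pairs only in the replicate block, and the main fit used no pairing. Deviations from the group means correlated at 0.187, 0.173 and 0.445 within a number and at -0.292 to 0.183 between numbers. Replicates 1 and 2 correlated about as well across numbers (0.183 and 0.156). The values therefore set replicate 3 of both fractions apart but cannot show how replicates 1 and 2 pair. Genes named with every library were the 5 highest per class, the 3 largest and 3 smallest changes among genes with a mean of at least 100, and every gene outside Hist1 of that mean. From the other lists, genes past the threshold with a mean of at least 100 were named, and H3f3a and the markers besides. The members and lists were chosen with earlier results of these data known.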

Additional observations from a re-analysis of the deposited data

How the results depend on the processing

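Of 609 values of the 30 named genes over 22 alternatives, 605 kept their direction and their side of the threshold, 0 fell below it, 3 passed it that had not and 1 changed sign. All 4 exceptions were of Hist2h2be: it passed with the replicate block, without nucleoplasm replicate 3 and without replicate 3 of both fractions, and its log2 fold change was 0.055 under ERCC scaling. With the replicate block (adjusted p = 0.00587 for Hist2h2be, limma) all 67 histone genes were lower, and no other call of a histone gene changed. More features passed in that fit: 39.8% of protein-coding genes and 30.9% of all features were lower, against 33.6% and 26.5% in the main fit. Leaving out 1 library gave 65 to 67 lower genes, 62 to 64 more than 4-fold lower and a median of -2.55 to -2.45. In those fits 30.0% to 34.1% of protein-coding genes were lower, and 4.50% to 5.70% more than 4-fold. ERCC scaling, which moved the scale of all genes, gave 9 genes more than 4-fold lower (against 0.538% of protein-coding genes) and a median of -1.76. Log2 ratios of summed counts were then -1.72 for all classes, -1.34 for H1, -1.75 for H2A, -1.73 for H2B, -1.73 for H3 and -2.03 for H4. With rows named by RefSeq accession only, 1 gene had a row, so 1 was lower, 0 more than 4-fold, and the median was -1.34. With rows sharing at least 0.5 of the joint span, the H1 ratio was -2.43, since Hist1h1c, Hist1h1d and Hist1h1e then had no row. Long-read TPM of histone genes, 1935 on the same strand, came to 1661 with accession transcripts only and 1161 with at least 0.5 of the joint span. It came to 512 on the opposite strand, which includes models also counted on the same strand. Rows of at most 2000 bases and leaving out replicate 3 of both fractions were chosen after seeing the data. Depth did not limit the 65 genes above 100 normalized counts, while Hist1h1b rested on under 3 reads per library.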
